A study of Mus musculus with 6 samples.

Results

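Genes that write, erase or read cytosine methylation were followed in heart areas chosen by their staining for the stress-induced transcription factor Atf3. They are *Dnmt1*, *Dnmt3a* and *Dnmt3b*, *Uhrf1*, *Tet1*, *Tet2* and *Tet3*, and *Mbd1* and *Mbd2*. They were chosen by name, with earlier results of these data known, and all 9 were found among the 17145 genes of the deposited table. The 6 libraries came from frozen sections of hearts of FS6KD mice, all labelled female. FS6KD is a line of mixed genetic background in which a gene-trap allele of *Ndufs6* knocks down this subunit of respiratory complex I. Photo-caged primers were freed by ultraviolet light in areas with high or low anti-Atf3 staining, so that cDNA of those areas was amplified, which gave 3 Atf3 high and 3 Atf3 low libraries labelled as cardiomyocytes. Both groups carry the knockdown, no wild-type library belongs to the comparison, and the labels give neither the age of the mice nor whether a high and a low area came from the same heart. By the paper, both kinds of area lay inside clusters of Atf3-positive cells, so Atf3 low does not mean free of Atf3. The question addressed here was whether the genes of DNA methylation differed between areas of high and low Atf3. *Tet2* stood higher in all 3 Atf3 high libraries than in any Atf3 low library, by 4.86-fold in the fit (95% interval 1.09 to 21.6). Its Atf3 low levels rested on 1 or 2 UMIs per library. The difference rested largely on 1 Atf3 high library, whose sex-linked RNA did not match its female label. It did not pass the test after adjustment, and no difference of the other genes was detectable at this depth.

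DNA methyltransferases place methyl groups on cytosines that precede guanines (CpG). Dnmt3a and Dnmt3b methylate unmodified sites, whereas Dnmt1, guided by the hemimethylated-DNA binder Uhrf1, copies the pattern onto the daughter strand after replication. Tet dioxygenases oxidize 5-methylcytosine in steps that lead to its removal, and methyl-CpG binding domain (Mbd) proteins recognize methylated sites and recruit repressors. In the adult heart, most cardiomyocytes no longer divide, and *Dnmt3a* and the Tet genes are the members usually discussed there, while *Dnmt1* and *Uhrf1* are best known from cycling cells.

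Reads were mapped by the authors to GRCm38, and each value is the number of unique molecular identifiers (UMIs), tags that count each captured cDNA molecule once, per gene and library. The libraries held between 81117 and 210588 UMIs. Levels are given in CPM, UMI counts normalized to a common depth by TMM-scaled library sizes, and 1 UMI was worth between 4.66 and 13.6 CPM. A gene without a UMI may have had up to 3 UMIs, which is 14.0 CPM in the deepest library and 40.9 CPM in the one where a UMI weighed most, counting error only. Atf3 high replicate 2 stood apart from its label, since it held Y-linked *Ddx3y* and *Eif2s3y* (16 UMIs together) but no *Xist* under a female label. The Atf3 low libraries held 1, 0 and 0 Y-linked and 3, 13 and 7 *Xist* UMIs in replicates 1, 2 and 3. Atf3 high replicates 1 and 3 held 0 Y-linked and 26 and 12 *Xist* UMIs. Results that rest largely on Atf3 high replicate 2 are given with and without it. Of the 8 cardiomyocyte markers fixed for the check, 7 were listed and all had UMIs in both groups. Their summed level was 15774 to 30771 CPM in Atf3 high and 34677 to 41811 CPM in Atf3 low, without overlap. Much of this gap came from *Myh6* (mean 3044 against 10666 CPM) and *Actc1* (4193 against 9283 CPM), and the sum of the other markers overlapped. All 7 had a negative log2 fold change, with a median of −0.40. All 7 listed fibroblast markers had a positive log2 fold change in Atf3 high, with a summed level of 1099 to 5188 CPM against 531 to 2574 CPM in Atf3 low, and none passed the test. *Myh6*, one of the cardiomyocyte markers, passed it. In such areas, fewer cells of a type and less RNA per cell cannot be told apart, and the part of these shifts in the results below was not tested.

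CpG, the site on which these proteins act, was unevenly frequent in the promoters of their own genes, which are shown for the gene of the largest estimated difference between the groups (*Tet2*), the most counted one (*Dnmt3a*) and the window with the fewest CG (the most upstream of *Dnmt1*). Promoter windows of 300 bases (250 before and 50 after a RefSeq start, GRCm38.p6) were found for 7 of the 9 genes, 12 windows in all. The *Tet2* window held 57 CG dinucleotides, a number reached by 0.152% of the 32851 windows of all genes, whose median was 7. The first *Dnmt3a* window held 46 (1.65% of windows have as many), and the further *Dnmt3a* windows held 47 (1.44%) and 18 (29.7%). The start of the first *Dnmt3a* window was not found in a transcript of the gene, while those of the further windows were. The most upstream *Dnmt1* window held 2 (85.9%), while the 2 further *Dnmt1* windows held 12 and 33. The 250 bases before the start are printed below for these 3 windows, in the direction of transcription, with each CG in capitals. They lie at chr3:133544391-133544640 (minus strand) for *Tet2*, chr12:3806730-3806979 (plus strand) for *Dnmt3a* and chr9:20959889-20960138 (minus strand) for *Dnmt1*, and none overlaps an annotated exon of its gene.
Tet2: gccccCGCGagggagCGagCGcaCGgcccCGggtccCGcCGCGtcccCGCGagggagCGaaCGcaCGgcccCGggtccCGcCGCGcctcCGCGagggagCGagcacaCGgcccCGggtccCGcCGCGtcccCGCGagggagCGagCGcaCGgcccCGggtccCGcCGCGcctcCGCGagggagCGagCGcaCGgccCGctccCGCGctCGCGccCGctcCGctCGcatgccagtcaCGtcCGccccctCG
Dnmt3a: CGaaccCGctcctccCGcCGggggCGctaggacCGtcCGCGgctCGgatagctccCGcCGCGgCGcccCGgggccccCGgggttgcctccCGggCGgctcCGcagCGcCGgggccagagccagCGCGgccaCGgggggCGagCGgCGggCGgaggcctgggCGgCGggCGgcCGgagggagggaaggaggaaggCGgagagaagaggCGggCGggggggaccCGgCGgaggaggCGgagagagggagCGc
Dnmt1: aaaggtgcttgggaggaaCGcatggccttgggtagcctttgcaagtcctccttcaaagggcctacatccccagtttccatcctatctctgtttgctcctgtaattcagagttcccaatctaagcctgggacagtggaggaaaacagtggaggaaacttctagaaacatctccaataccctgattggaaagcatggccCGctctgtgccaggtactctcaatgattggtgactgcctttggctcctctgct

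The *Tet2* sequence repeats itself, since 77.9% of its bases were the same 42 bases further on. The Atf3 consensus named in the study, TGACGTCA, and the related AP-1 motif TGANTCA were searched on both strands of the whole windows. TGACGTCA was found in 1.79% of all windows and TGANTCA in 7.81%, and neither was found in any of the 12 windows of the 7 genes. These letters can lie outside the windows, which say nothing about Atf3 binding elsewhere.

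**Figure D1:**
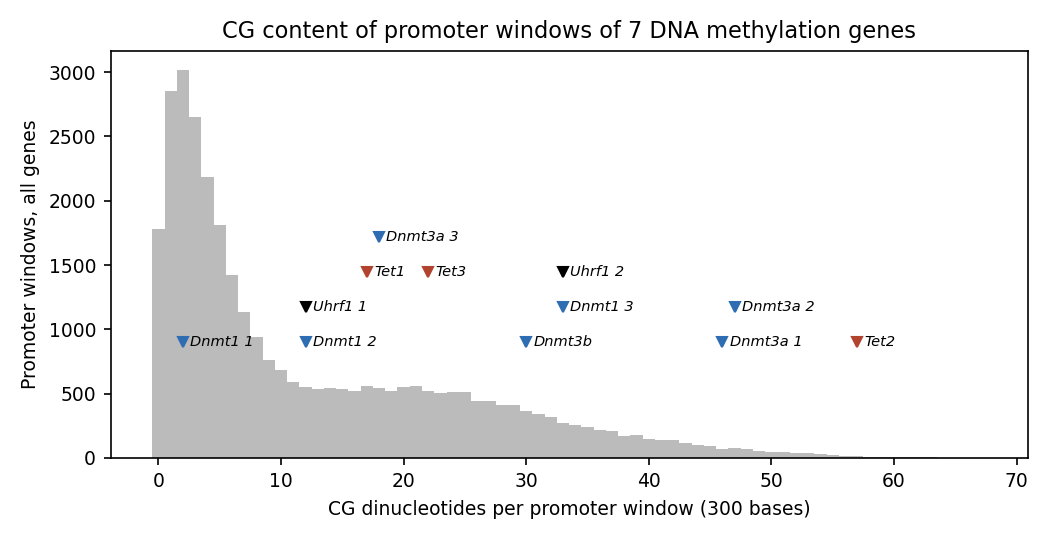
Number of CG dinucleotides per 300-base promoter window (x axis) for all windows (grey bars, number of windows on the y axis), with the windows of 7 of the genes marked by triangles (red, Tet genes; blue, methyltransferases; black, *Uhrf1*), whose height has no meaning and whose number tells windows of a gene apart. *Tet2* lies at 57, at the far right of the distribution, and the windows of *Dnmt1* range from 2 to 33.

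All 9 genes were sparsely counted. They held 183 UMIs together, 0.0214% of all UMIs, with 1 (*Uhrf1*) to 46 (*Dnmt3a*) per gene. Genes with at least 10 UMIs over the 6 libraries were tested, 7665 in all, with the quasi-likelihood test of edgeR and adjustment by Benjamini and Hochberg. *Dnmt1*, *Dnmt3a*, *Tet2*, *Mbd1* and *Mbd2* passed this minimum, and *Dnmt3b*, *Uhrf1*, *Tet1* and *Tet3* had too few UMIs to test. Of the 5 tested, 0 passed an adjusted p of 0.05, where 0.0913% of all genes did (7 of 7665; 0.0391% higher and 0.0522% lower in Atf3 high). An unadjusted p under 0.05 was reached by 1 of the 5, *Tet2*, with the higher level in Atf3 high, as by 3.55% of all genes, and by none with the lower level, as by 2.24%. The limma-voom, limma-trend and DESeq2 tests called none of the 5 either, and each put 0 of them at an unadjusted p under 0.05, although DESeq2 gave no adjusted p for 4 of them. Log2 fold changes, positive where Atf3 high was higher, were positive for 1 of the 5, against 55.2% of all genes tested, and negative for 4, against 44.8%. None of the 5 had every Atf3 high library below every Atf3 low library, as 3.89% of all genes did. The median over the 5 was −0.66 on the log2 scale and that of all genes tested was 0.11.

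**Figure D2:**
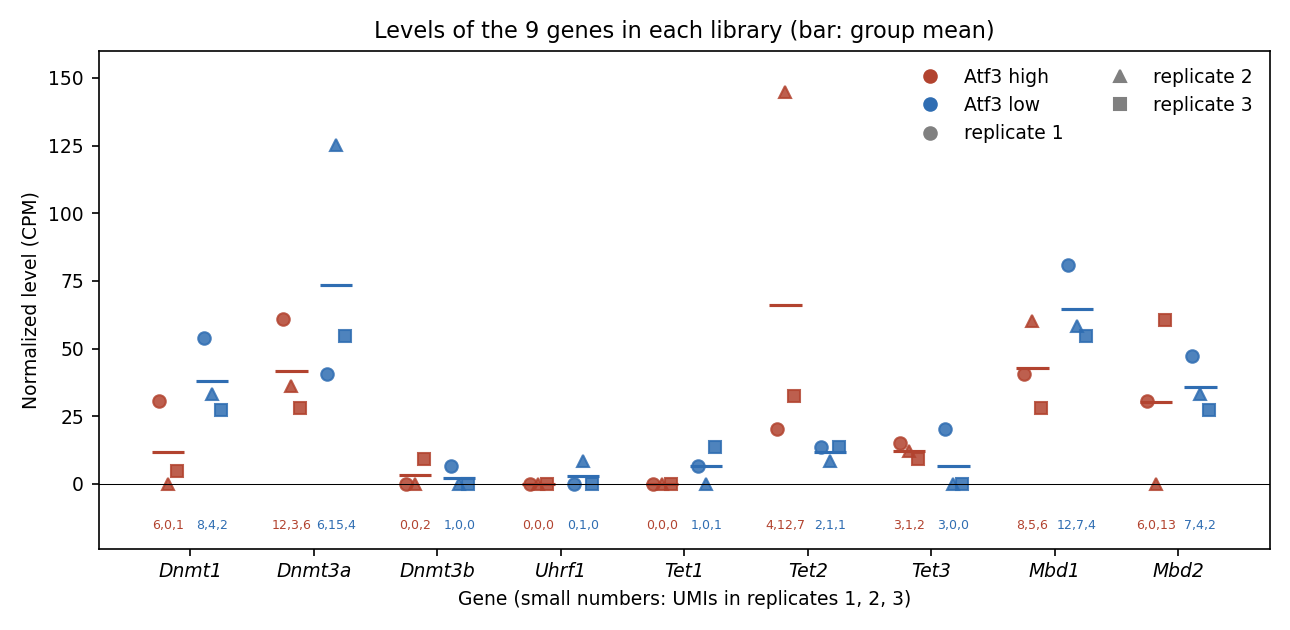
Level of each gene (y axis, CPM) in each library, with Atf3 high in red and Atf3 low in blue, symbols for replicates, bars for group means and the UMIs of replicates 1, 2 and 3 in small print. *Tet2* is the only one of the 9 genes whose Atf3 high libraries all lie above the Atf3 low libraries, with Atf3 high replicate 2 at 145 CPM.

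Of the writers, *Dnmt1* (chromosome 9, 20907209 to 20959888, minus strand), the maintenance methyltransferase, was counted 6, 0 and 1 times in replicates 1, 2 and 3 of Atf3 high and 8, 4 and 2 times in those of Atf3 low. Its level was 30.5, 0 and 4.66 CPM in Atf3 high, against 53.9, 33.4 and 27.2 CPM in Atf3 low. Atf3 high replicates 2 and 3 were below every Atf3 low library, while replicate 1 lay among them. Mean levels were 11.7 ± 16.4 and 38.2 ± 14.0 CPM (SD, n = 3 libraries each). By edgeR the log2 fold change was −1.50 (standard error 1.10, 95% interval −3.71 to 0.71, adjusted p = 0.969). The absence of UMIs in Atf3 high replicate 2 allows up to 36.2 CPM, more than the level of Atf3 low replicates 2 and 3, so a lower level was not detectable in that library. Without Atf3 high replicate 1, which held 6 of the 7 UMIs of its group, the log2 fold change was −3.28 (unadjusted p = 0.0445 and adjusted p = 0.9998 by edgeR). Leaving out the highest library of a group lowers that group by construction. In this setting 2 of the 5 tested genes, *Dnmt1* and *Tet2*, were under an unadjusted p of 0.05, as were 353 of all 7660 genes tested.

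*Dnmt3a* (chromosome 12, 3806007 to 3914443, plus strand), a de novo methyltransferase, was the most counted of the 9. It had 12, 3 and 6 UMIs in Atf3 high, or 61.0, 36.2 and 27.9 CPM, and 6, 15 and 4 UMIs in Atf3 low, or 40.4, 125 and 54.5 CPM. The groups overlapped, and the highest level was that of Atf3 low replicate 2. The log2 fold change was −0.79 (standard error 0.76, 95% interval −2.33 to 0.74, adjusted p = 0.996), and −0.17 without Atf3 low replicate 2. *Dnmt3b*, the other de novo enzyme (chromosome 2, 153649450 to 153687730, plus strand), had 2 UMIs in Atf3 high replicate 3, 1 UMI in Atf3 low replicate 1 and none elsewhere. Both groups were thus at or under 3 UMIs, and no difference could be measured. *Uhrf1* (chromosome 17, 56303321 to 56323486, plus strand), which guides Dnmt1, had 1 UMI in all, in Atf3 low replicate 2. The gene *Gm5648* matches it over 1590 bases at 95% identity or more, and no UMI of *Gm5648* is listed.

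Of the erasers, *Tet2* (chromosome 3, 133463679 to 133545139, minus strand), also studied for its loss in blood cell clones, was counted 4, 12 and 7 times in Atf3 high but 2, 1 and 1 times in Atf3 low. Its level was 20.3, 145 and 32.6 CPM in Atf3 high, against 13.5, 8.34 and 13.6 CPM in Atf3 low. Every Atf3 high library was above every Atf3 low library, an order that 7.07% of all genes tested showed, and Atf3 high replicate 2 was far above the rest. The means were 65.9 ± 68.6 and 11.8 ± 3.01 CPM (SD, n = 3 libraries). The log2 fold change was 2.28 (standard error 1.07, 95% interval 0.13 to 4.43), with an unadjusted p of 0.0382 and an adjusted p of 0.823 by edgeR's quasi-likelihood test, so the difference did not pass the test. On the scale log2(CPM + 4), the difference of the means was 1.71 (two-sided exact permutation test, p = 0.1, which is the lower limit for 3 libraries against 3). Counting error alone puts the ratio of the pooled UMIs, 23 of 476577 in Atf3 high and 4 of 378975 in Atf3 low, at 4.57 (exact 95% interval 1.56 to 18.2), an interval that leaves out the spread between libraries.

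The *Tet2* value rested largely on the library that stood apart, Atf3 high replicate 2, which held 12 of the 23 UMIs of its group. No Atf3 low library lacked *Xist* as this one did, and the part of sex in the *Tet2* value was not tested. Without Atf3 high replicate 2 the log2 fold change was 1.12 (standard error 1.31, unadjusted p = 0.394 by edgeR). The remaining Atf3 high levels, 20.3 and 32.6 CPM, were still above the highest Atf3 low level of 13.6 CPM. The Atf3 low levels rested on 1 or 2 UMIs per library, fewer than the 3 that a gene without a UMI may have had. In Atf3 low replicate 3, 3 UMIs are 40.9 CPM, more than the remaining Atf3 high levels. In replicate 2 they lie between these levels, and in replicate 1 below them. Counting error alone could therefore undo this order, and no difference is drawn from it. After thinning each library to 81117 UMIs, *Tet2* kept 2, 12 and 2 UMIs in Atf3 high but 2, 0 and 1 in Atf3 low, so that the groups touched, and the log2 fold change was 2.09. Since *Tet2* is active in leukocytes, their markers are given beside it. The 8 leukocyte markers summed to 177 to 381 CPM in Atf3 high and 245 to 350 CPM in Atf3 low, with 314 CPM in Atf3 high replicate 2. Of the 6 leukocyte markers tested, 3 had positive and 3 negative log2 fold changes and 0 passed the test. *Csf1r*, a macrophage receptor gene, was counted 4, 5 and 4 times in Atf3 high but 0, 0 and 2 times in Atf3 low, while *Ptprc*, the pan-leukocyte CD45 gene, had 3 UMIs in Atf3 low replicate 1 and none elsewhere. The part of leukocyte RNA in the *Tet2* value was not tested.

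The other Tet genes were near the detection limit. *Tet1* (chromosome 10, 62804570 to 62908996, minus strand) had no UMI in Atf3 high and 1 UMI each in Atf3 low replicates 1 and 3. *Tet3* (chromosome 6, 83362373 to 83459084, minus strand) had 6 UMIs over the Atf3 high libraries (3, 1 and 2) and 3 over the Atf3 low libraries (3, 0 and 0), a pooled ratio of 1.59 with an exact 95% counting interval of 0.34 to 9.83. The same 3, 1, 2, 3, 0 and 0 UMIs were listed for *5430434F05Rik*, a gene to be experimentally verified that lies on the same strand within *Tet3* (83417440 to 83420992) and, in the annotation used here, overlaps none of its exons. Of 99 overlapping gene pairs on the same strand with at least 9 UMIs in each gene, this was the only pair with equal counts in all 6 libraries, and there was none among 394 pairs on opposite strands. The counts of *Tet3* are therefore uncertain, and which of the genes the 9 UMIs came from was not tested.

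The readers *Mbd1* and *Mbd2* lie on chromosome 18, at 74267605 to 74282732 and 70568189 to 70626131 (both plus strand). *Mbd1*, which also binds unmethylated CpG through CXXC fingers, was counted 8, 5 and 6 times in Atf3 high (40.6, 60.3 and 27.9 CPM) and 12, 7 and 4 times in Atf3 low (80.9, 58.4 and 54.5 CPM). The log2 fold change was −0.66 (standard error 0.77, 95% interval −2.22 to 0.90, adjusted p = 0.996), and the groups overlapped through Atf3 high replicate 2. *Mbd2*, which links methylated DNA to the NuRD corepressor, was counted 6, 0 and 13 times in Atf3 high (30.5, 0 and 60.6 CPM) and 7, 4 and 2 times in Atf3 low (47.2, 33.4 and 27.2 CPM). Its Atf3 high libraries held both the highest and the lowest level. The log2 fold change of *Mbd2* was −0.13 (standard error 0.96, 95% interval −2.06 to 1.81, adjusted p = 0.996), and its sign turned without Atf3 high replicate 2 (0.30), without Atf3 low replicate 1 (0.13) and with library size scaling (0.078).

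**Figure D3:**
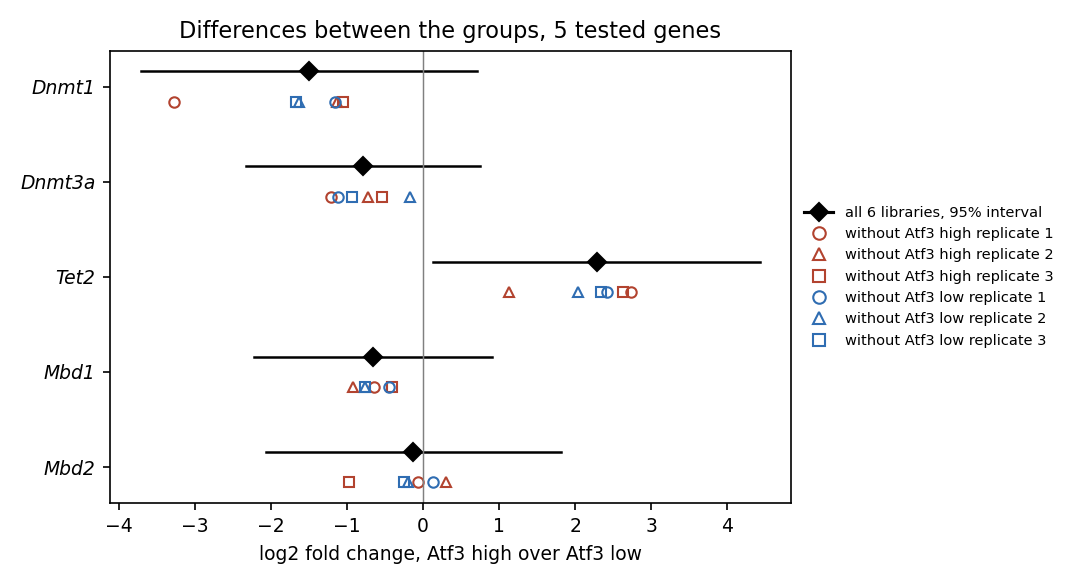
Log2 fold change of the 5 tested genes (x axis, positive means higher in Atf3 high), with the estimate from all 6 libraries and its 95% interval in black and the estimates without each library as open symbols. The interval of *Tet2* starts at 0.13, those of the other 4 genes hold 0, and *Tet2* without Atf3 high replicate 2 lies at 1.12.

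Within a library, the UMIs of Tet genes can be set against those of Dnmt genes without any normalization. The CEL-seq2 primer counts molecules at their 3′ end, so these shares are of molecules counted and are not corrected for transcript length. Tet genes held 7 of 25 Tet and Dnmt UMIs (28.0%, 95% Wilson interval 14.3 to 47.6) in Atf3 high replicate 1, 13 of 16 (81.3%, 57.0 to 93.4) in replicate 2 and 9 of 18 (50%, 29.0 to 71.0) in replicate 3. In Atf3 low they held 6 of 21 (28.6%, 13.8 to 50), 1 of 20 (5%, 0.888 to 23.6) and 2 of 8 (25%, 7.15 to 59.1). The groups overlapped, because Atf3 high replicate 1 lay within the range of Atf3 low. Mean shares were 53.1% ± 26.8 for Atf3 high and 19.5% ± 12.7 for Atf3 low (SD, n = 3 libraries each). Without Atf3 high replicate 2, the pooled share of Atf3 high was 37.2% (16 of 43 UMIs, 24.4 to 52.1). These intervals cover counting error only, and the share was not tested. Its genes, like those tested one by one, were chosen with results of these data known. The summed level of the Dnmt genes was 56.5 ± 30.4 CPM in Atf3 high and 114 ± 39.9 CPM in Atf3 low, and that of the Mbd genes was 73.3 ± 14.2 and 101 ± 24.4 CPM.

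**Figure D4:**
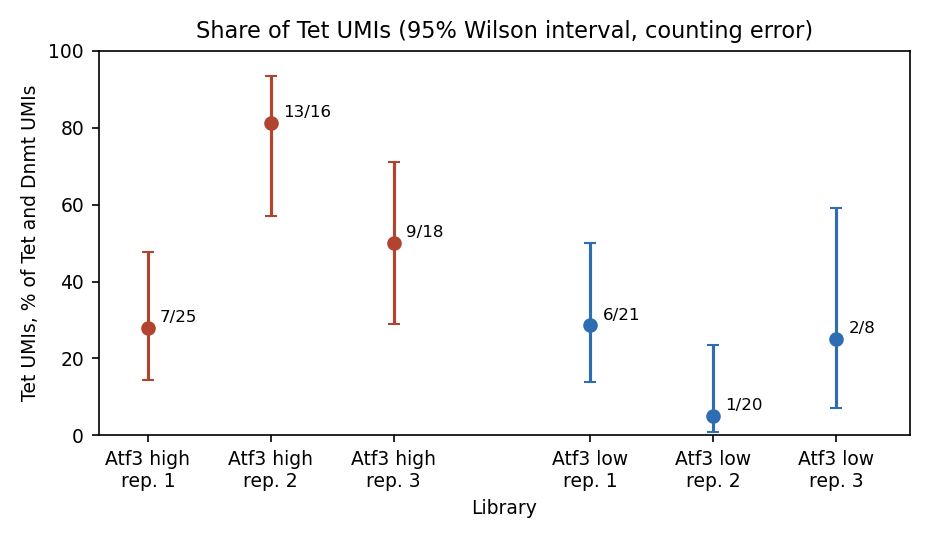
Share of Tet UMIs among Tet and Dnmt UMIs (y axis, percent) in each library (x axis), with 95% Wilson intervals for counting error and the UMIs behind each share. Atf3 high replicates 2 and 3, at 81.3% and 50%, are above all Atf3 low libraries, and Atf3 high replicate 1, at 28.0%, is among them. Most Tet UMIs of the Atf3 high libraries are those of *Tet2*, and the Tet UMIs include those of *Tet3*, whose counts are uncertain.

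The wider machinery was followed by 7 lists of 69 genes, of which 41 had enough UMIs to test. None passed an adjusted p of 0.05 by edgeR, and 4 had an unadjusted p under 0.05, 9.76% of the 41 against 5.79% of all genes tested. These 4, *Usp7*, *Mbd6*, *Mtrr* and *Cxxc5*, reached the minimum of 10 UMIs mainly through the group where they were higher. DESeq2, limma-voom and limma-trend called 0 of the 41 too and put 3, 3 and 5 at an unadjusted p under 0.05, while DESeq2 gave no adjusted p for 30. Of the 41, 23 had a positive and 18 a negative log2 fold change, with a median of 0.11, that of all genes tested.

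Partners of the writers gave 5 tested genes of 9, with a median of 0.76. *Usp7*, the deubiquitinase that stabilizes Dnmt1 and Uhrf1, was counted 20, 7 and 7 times in Atf3 high but 2, 1 and 1 times in Atf3 low, without overlap. Its log2 fold change was 2.53 (standard error 0.97, adjusted p = 0.663), and 2.43 without Atf3 high replicate 2. *Trim28*, a corepressor, had 0.78 (standard error 0.71), and 0.37 without Atf3 high replicate 2. Among partners of demethylation, with 5 tested of 12 and a median of 0.11, *Cxxc5*, a CXXC protein that binds Tet2, was counted 0, 0 and 1 times in Atf3 high and 2, 7 and 0 times in Atf3 low (−3.20, standard error 1.58, adjusted p = 0.860). *Gadd45a*, linked to DNA repair and demethylation, had 1.29 (standard error 0.85).

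The list of other methyl-CpG readers gave 5 tested genes of 7, with a median of 0.60. It takes in genes by their Mbd fold, whether or not their proteins bind methylated DNA. *Mbd6*, which has the Mbd fold and acts with a histone deubiquitinase, was counted 5, 6 and 16 times in Atf3 high but 2, 0 and 0 times in Atf3 low (3.16, standard error 1.19, adjusted p = 0.649). CXXC readers of unmethylated CpG gave 4 tested genes of 6, with a median of 0.45, *Kmt2b* at 1.70 and *Cxxc1* at 0.69. Without Atf3 high replicate 2, *Cxxc1* was at 0.20, and it ranged from 0.20 to 1.66 with each library left out. *Kmt2b* ranged from 1.11 to 5.37, the latter without Atf3 low replicate 1, the only Atf3 low library with its UMIs, so that this fitted value depends on the prior count. NuRD corepressor genes gave 10 tested of 11 and a median of −0.08, with *Gatad2a* at 1.41 and *Rbbp7* at 0.82, the latter at 0.20 without Atf3 high replicate 2.

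In the supply of methyl donor and 2-oxoglutarate, 10 of 12 genes were tested, with a median of −0.42. *Mtrr*, which reactivates methionine synthase, was counted 13, 3 and 4 times in Atf3 high but 1, 0 and 0 times in Atf3 low (3.48, standard error 1.39, adjusted p = 0.721). Of 12 genes of DNA replication and the cell cycle, 11 were listed, and 9 of these had fewer than 10 UMIs, *Mki67* and the Mcm helicase genes among them. The log2 fold change of *Rrm2* was 2.03 (standard error 1.41) and that of *Top2a* −1.69 (standard error 1.41), and the latter was 0.19 without Atf3 low replicate 1. Without Atf3 high replicate 2, *Usp7*, *Mbd6* and *Mtrr* were the genes of the 41 at an unadjusted p under 0.05, where 4.63% of all genes were, and none of the 5 tested members was. *Usp7*, *Mbd6* and *Mtrr* passed the minimum of 10 UMIs only through Atf3 high, so their low p is no independent support.

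**Figure D5:**
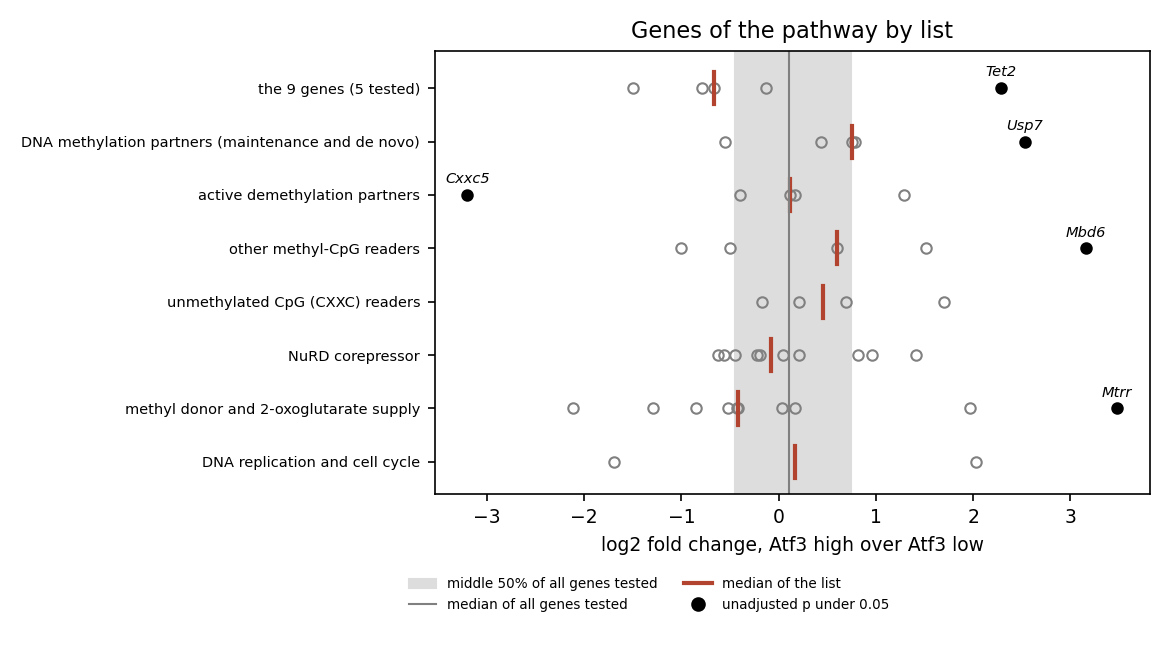
Log2 fold change (x axis) of each tested gene by list, with red bars for list medians, filled points for an unadjusted p under 0.05 and the grey band and line for the middle 50% and the median of all genes tested. No point passed an adjusted p of 0.05, and *Tet2*, *Usp7*, *Mbd6*, *Mtrr* and *Cxxc5* are the filled points.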

How the data were processed

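Photo-isolation chemistry libraries were made by the authors with the CEL-seq2 method, sequenced on a NovaSeq6000 and mapped to GRCm38. The submitters' notes name HISAT2 (version 2.1.0), UMI-tools (version 1.0.0) and featureCounts (version 1.6.4); the annotation release, the strand setting and the handling of reads shared by genes are not given in the sources used here. As deposited, the table holds raw UMI counts by gene for each library. Libraries were grouped by their labels, and the study gives 3 biological replicates per group.

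Genes with at least 10 UMIs in total were scaled by TMM and tested with edgeR (version 4.0.16, glmQLFit and glmQLFTest, R version 4.3.3, no covariate), with Benjamini-Hochberg adjustment over all 7665 genes. Levels are CPM of the TMM-scaled library sizes. Standard errors are the log2 fold change divided by the root of F. DESeq2 (version 1.42.0), limma-voom and limma-trend (limma version 3.58.1), other scalings and filters, a replicate block, thinning and leaving out each library were tried. The test was checked on simulated data. Positions come from GENCODE M21, promoters from RefSeq, and near-identical transcripts from BLAST+ (version 2.17.0; 95% identity over 200 bases). The members and lists were chosen with earlier results of these data known, which limits every p-value given for them. Named are all members and, per list, the 2 genes of smallest p. *Csf1r*, *Ptprc*, *Myh6*, *Actc1*, *Mki67* and *5430434F05Rik* were added after their values were seen. Library checks used *Ddx3y*, *Eif2s3y* and *Xist*, and *Atf3* and *Ndufs6* are given in the closing section. Some genes that this rule names are not reported here. Protein sequences were not used here. Endothelial, mural and erythroid markers were also summed.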

Additional observations from a re-analysis of the deposited data

How the results depend on the processing

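The 5 tested genes passed no adjusted p of 0.05 under any alternative that gave one, and all of them fell below edgeR's filterByExpr minimum. *Dnmt1*, *Dnmt3a*, *Tet2* and *Mbd1* kept the sign of their log2 fold change in 14 alternatives each, and *Mbd2* turned in 3 of 14, to 0.078 with library size scaling, 0.30 leaving out Atf3 high replicate 2 and 0.13 leaving out Atf3 low replicate 1; the cause was not tested. With each library left out, *Dnmt1* ranged from −3.28 to −1.06, *Dnmt3a* from −1.21 to −0.17, *Tet2* from 1.12 to 2.74, *Mbd1* from −0.92 to −0.41 and *Mbd2* from −0.97 to 0.30, and over all alternatives the adjusted p of *Tet2* lay between 0.580 and 1.00. Its unadjusted p by edgeR was 0.0177 and 0.0272 without Atf3 high replicates 1 and 3, 0.394 without Atf3 high replicate 2, and 0.0674, 0.0892 and 0.0557 without Atf3 low replicates 1, 2 and 3. *Top2a* (−1.69) ranged from −2.39 to 0.19, the latter without Atf3 low replicate 1. Library size scaling moved the median of all genes on the log2 scale from 0.11 to 0.31 and the share of higher genes among those at an unadjusted p under 0.05 from 61.3% of 444 to 79.8% of 514.

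Over all genes, edgeR called 7 after adjustment, DESeq2 12, limma-trend 3, and edgeR without one library 1 to 18 (3 without Atf3 high replicate 1, 1 without replicate 2 and 18 without replicate 3; 3, 6 and 1 without Atf3 low replicates 1, 2 and 3). At an unadjusted p under 0.05, filterByExpr left 119 genes because it tested 1988, DESeq2 gave 249, and leaving out one library gave 353 to 545. Replicate numbers are shared by the groups, and a replicate block raised the calls to 24. Libraries of the same number had correlations of 0.16, 0.03 and 0.15 between their deviations from the group means (across 3756 genes, which are not independent), each library's highest, but the labels do not say that a number marks a shared heart. For number 2, the Atf3 high library held 16 Y-linked and 0 *Xist* UMIs, and the Atf3 low library 0 and 13. By these genes number 2 does not mark a shared heart, so the block does not stand for a pairing there. With the block, *Tet2* had 1.98 (unadjusted p = 0.0936, edgeR). With each library left out, list medians ranged from 0.31 to 1.07 for writer partners, −0.12 to 0.32 for demethylation partners, 0.0021 to 0.98 for other methyl-CpG readers, 0.22 to 0.88 for CXXC readers, −0.095 to 0.51 for NuRD, −1.01 to −0.13 for methyl donor and 2-oxoglutarate supply and −0.72 to 1.44 for replication, with both signs in 3 of the 7 lists. Without Atf3 high replicate 2 they were, in this order, 0.68, 0.025, 0.69, 0.22, 0.086, −0.22 and 0.35. The lowest median of other readers came without Atf3 high replicate 3, and the highest of NuRD without Atf3 low replicate 3. *Mbd6*, *Mtrr* and *Rrm2* reached 5.98, 5.51 and 4.95 without a library, *Cxxc5* ranged from −4.70 to −1.71 and *Gadd45a* from 0.75 to 1.89. Depth limits the level of *Tet2* in Atf3 low, which rests on 1 or 2 UMIs per library.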

Other observations

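For *Dnmt3a*, the most counted of the 9 genes, the 3 genes whose log2(CPM + 4) followed it most closely over the 6 libraries were *Wbp2* (Pearson's r = 0.97, Spearman's rho = 1.00), *Zeb1* (0.96 and 0.94) and *Cd44* (0.96 and 0.89), out of 3755 genes with at least 30 UMIs, of which 13 had r over 0.9. *Wbp2* encodes a WW domain binding protein, *Zeb1* a zinc finger repressor and *Cd44* the hyaluronan receptor. All 3 had their highest level in Atf3 low replicate 2, at 217, 100.1 and 100.1 CPM, as *Dnmt3a* did. Without the 2 libraries farthest from the median of *Dnmt3a*, r was 0.96, 0.82 and 0.84 over the 4 others. These genes were picked for their likeness, so r is a description with no test.

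*Atf3* RNA was counted 50, 7 and 25 times in Atf3 high and 35, 0 and 8 times in Atf3 low (log2 fold change 0.40, standard error 0.65), and *Ndufs6*, the knocked-down gene, 2, 0 and 3 times in Atf3 high and never in Atf3 low. The library with the most *Tet2* UMIs, Atf3 high replicate 2, thus had 7 *Atf3* UMIs, the fewest of its group. Endothelial markers summed to 953 to 1230 CPM in Atf3 high and 804 to 1294 CPM in Atf3 low, mural markers to 278 to 675 and 163 to 559 CPM, and the 2 listed of 5 erythroid markers to 32.6 to 157 and 0 to 128 CPM, all with overlap. Of the 5 tested endothelial markers 3 had positive and 2 negative log2 fold changes, and the 5 tested mural markers all had positive log2 fold changes, and 0 of either list passed the test.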
